A study of Mus musculus with 6 samples.

Results

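Mouse Ba/F3 cells that carried the ETV6-PDGFRB fusion and had been given imatinib were compared with Ba/F3 cells that carried an empty vector, were kept in interleukin 3 (IL3) and had been given the same dose of imatinib. The comparison was defined by the labels alone and used 2 of the 6 arrays of the series, 1 on each side. Ba/F3 is an established mouse line, labelled as pro-B cells, that depends on IL3 unless an active kinase takes its place. All lines had received the pMSCV retroviral vector: empty, with ETV6-PDGFRB or with FIP1L1-PDGFRA, both of which are leukaemia fusions of a platelet-derived growth factor receptor. The fusion cells had been selected for growth without IL3, whereas the vector cells were supplied with it. Imatinib, labelled Glivec, was applied at 100 nM for 4 h to one sample of every line and omitted from another, and the RNA of each was hybridised to 1 Affymetrix array.

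With imatinib on both sides, the treated pair set cells without IL3, whose driving kinase is a target of the drug, against cells supplied with IL3, whose receptor works through another kinase. The fusion gene, the selection, the absence of IL3 and the inhibited kinase all lay on one side, so they cannot be told apart. Each group was 1 array of 1 line, no difference has a replicate check, and no test was possible. Signals came from bulk RNA, in which fewer cells of a type and less RNA per cell cannot be told apart.

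Imatinib occupies the ATP site of a small group of tyrosine kinases, among them both PDGF receptors. The IL3 receptor signals through JAK2 to STAT5 and through the ERK and PI3K pathways, and an active PDGF receptor fusion reaches the same STAT, ERK and PI3K pathways without the cytokine. STAT5 drives feedback and survival genes, MYC drives ribosome production, and PI3K holds the FOXO transcription factors out of the nucleus, so that FOXO targets are read when PI3K activity is low. The IRF factors take part in driving the interferon-stimulated genes.

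The deposited values were linear MAS5 signals for 22690 probe sets, of which 20380 were assigned to 12393 genes. All arrays had a mean signal of 100.0 after trimming 2% at each end, 3' to 5' ratios of 1.12 to 1.22 for actin, and between 49.8% and 50.6% of probe sets above a floor of 20.1, which was set at the median and so does not measure detection. Signals below the floor were raised to it. Ratios were formed for genes above the floor on at least 1 of the 2 arrays; those with 1 array at the floor are bounds, written as "at least". The vector arrays without and with imatinib, both of the IL3-supplied line, served as the yardstick of spread: their log2 ratios had an SD of 0.19 over 6674 genes, and 9 genes (0.135%) were 2-fold apart. Pdgfrb and Pdgfra were below the floor on all 6 arrays, between 0.135 and 10.9, so these probe sets gave no reading of the fusion transcripts, while Etv6 was at 23.8 in treated ETV6-PDGFRB and 39.7 in treated vector cells. Of 23 B cell markers on the array, 7 were above the floor on at least 1 treated array. They included Cd79a, Cd79b and Ptprc, whereas Pax5, Ebf1, Rag1, Vpreb1 and Ms4a1 were below it on all arrays.

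The imatinib-treated ETV6-PDGFRB array differed from the treated vector array at 558 of 6846 genes (8.15%) by at least 2-fold. Of these, 303 genes (4.43%) were higher and 255 (3.72%) lower in ETV6-PDGFRB cells, 56 and 23 of them as bounds, and 29 and 23 genes were at least 4-fold apart. The log2 ratios had a median of 0.04, an SD of 0.58 and an interquartile range of -0.27 to 0.37. Among the 4158 genes with a signal of at least 100 on the higher array, 182 were higher and 188 lower, against 2 and 0 of 3831 such genes between the vector arrays. Among the 20 highest genes with a signal of at least 100 were mast cell proteases, interferon-inducible GTPases and the cell cycle inhibitors Ccng2 and Cdkn1b. The 20 lowest belonged to mixed functions, with Id1, F2rl2, Pik3cd, Dok2 and Adgre1 at the end of the range and the cytokine feedback genes Cish and Pim1 further up, and ribosome biogenesis was the list with the most lower members. Scaling the arrays to the 18 hybridization control probe sets in place of the trimmed mean moved the median of all genes from 0.04 to -0.23 and gave 139 higher and 487 lower genes, so 22.2% of the differences were then higher against 54.3%. Of the 205 differing genes with a second usable probe set, 201 kept their direction on every other probe set, while 115 were past 2-fold on at least 1 of them and 95 on all of them. The exceptions were Bace1, Ivns1abp, Luc7l and Rbmx.

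**Figure D1:**
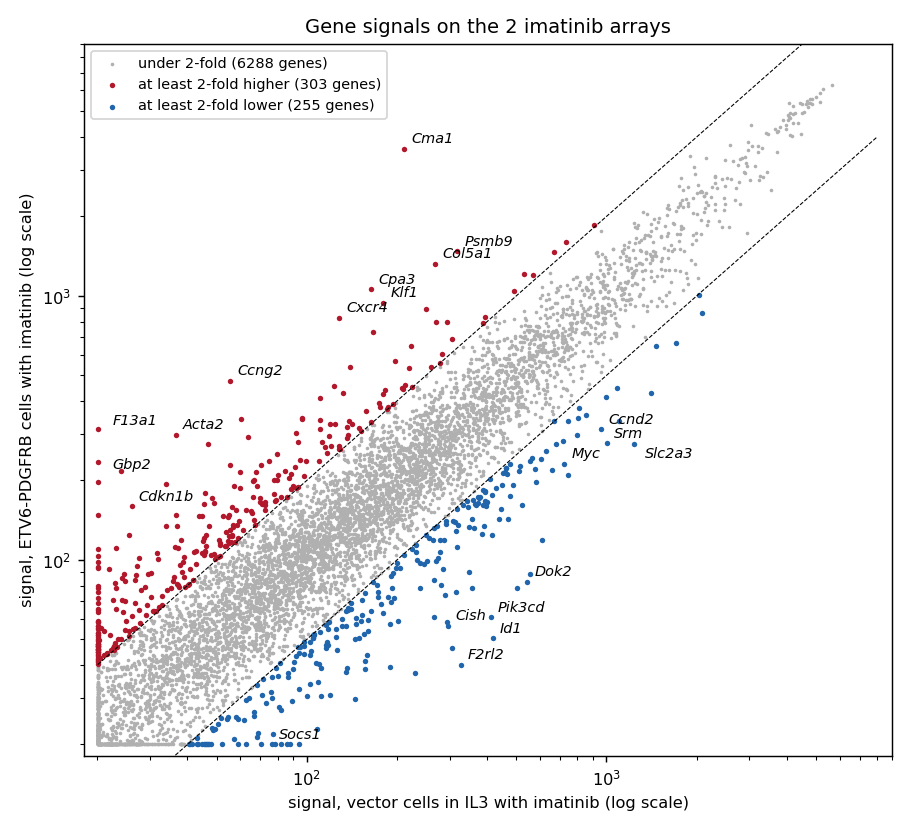
Signals of 6846 genes on the 2 imatinib-treated arrays, vector cells in IL3 on the horizontal and ETV6-PDGFRB cells on the vertical axis, both on a log scale, with signals under 20.1 drawn at that floor. Dashed lines mark 2-fold. 303 genes (red) lie above the upper line, with Cma1 at 17.1-fold, and 255 (blue) lie below the lower line, with Id1 and F2rl2 at the lower edge of the cloud.

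Whether the 2 lines differed without the drug was read from the untreated arrays, which share no array with the treated pair. Without imatinib, 152 of 6790 genes (2.24%) were at least 2-fold higher in ETV6-PDGFRB cells and 50 (0.736%) at least 2-fold lower. Over the 6670 genes with both ratios, 81 (1.21%) were higher in both settings and 25 (0.375%) lower in both. A further 156 genes (2.34%) lay under 1.5-fold without imatinib and at least 2-fold higher with it, and 188 (2.82%) under 1.5-fold without it and at least 2-fold lower with it. So most of the lower genes lay near the vector level without the drug, and a larger share of the higher than of the lower genes already stood apart there. Of the 152 genes that were higher without imatinib, 15 were below the floor on both treated arrays and had no ratio there. Of the other 137, 56 were no longer 2-fold higher with the drug. Of these, 30 lay within 1.5-fold of the vector cells in either direction and 3, Socs1, Cd274 and Lif, were lower than the vector cells by more than 1.5-fold. Socs1 was the 1 gene (0.015%) past 2-fold in opposite directions. Whether the 2 differences themselves differ was not tested.

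**Figure D2:**
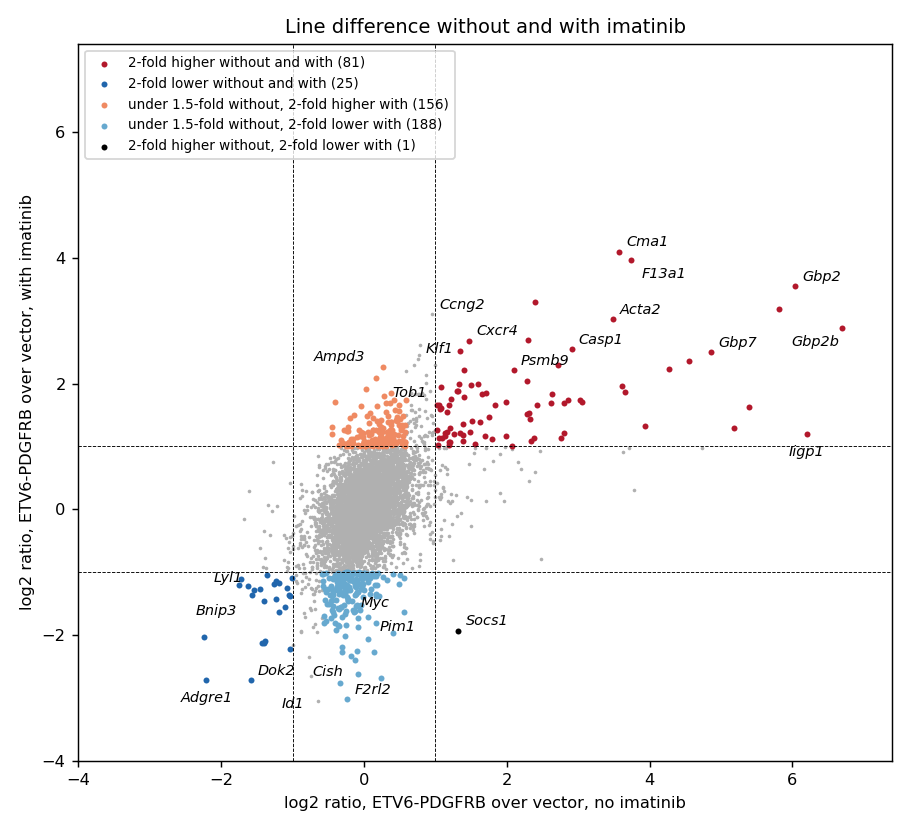
Log2 ratio of ETV6-PDGFRB over vector cells without imatinib (horizontal) and with imatinib (vertical) for 6670 genes, 1 array in each group, coloured by the 5 classes named in the key; dashed lines mark 2-fold. Interferon-inducible GTPases such as Gbp2b and Iigp1 lie far to the right and less far up, Cma1 and F13a1 lie high on both axes, STAT5 targets such as Cish and Pim1 lie near 0 on the horizontal axis and below the lower line, and Socs1 is alone at the lower right.

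STAT5 target genes were lower in treated ETV6-PDGFRB cells: 10 of the 20 list members with a ratio were at least 2-fold lower and 2 higher, with a median log2 ratio of -0.96 against 0.04 over all genes. Of the 18 above the floor on the treated ETV6-PDGFRB array, 9 were lower and 2 higher, with a median of -0.96. For the 19 members with a ratio in both settings the median was -1.02 with imatinib and -0.09 without it, where 0 were 2-fold lower. Cish, a STAT5-induced feedback inhibitor of cytokine receptors, had a signal of 56.4 in treated ETV6-PDGFRB cells and 297 in treated vector cells, which is 5.27-fold lower. Its untreated signals were 284 and 309. Id1, an inhibitor of basic helix-loop-helix factors, read 50.4 against 418 with imatinib, 8.28-fold lower and the lowest ratio of all genes with a signal of at least 100. The untreated arrays gave 267 against 418 for it. In both genes the treated ETV6-PDGFRB array stood apart from the other arrays of these lines.

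The serine/threonine kinase Pim1, which supports survival downstream of cytokines, had 75.4 in treated ETV6-PDGFRB and 314 in treated vector cells (4.16-fold lower), with untreated signals of 356 and 341. Its relative Pim2 was at 21.1 against 42.9, 2.03-fold lower and close to the floor, and it fell under 2-fold with a floor at the 60th percentile or a pseudocount. Il4ra, the interleukin 4 receptor chain, was at 30.6 against 112 (3.66-fold lower, but a log2 ratio of -0.88 as the mean over its probe sets), and Podxl, a surface sialomucin, at 58.2 against 293 (5.04-fold lower). These 4 genes lay within 1.5-fold between the lines without the drug. Ccnd2, the D-type cyclin through which cytokines move cells into S phase, was at 312 against 957 (3.06-fold lower), after 788 against 858 untreated. Socs2 was at 119 against 180, 1.51-fold lower, and Socs3 at 29.3 against 29.2, so not every cytokine feedback gene was lower. The 2 higher members were Gimap4 and Rgs1, at 2.65-fold and 2.26-fold. Gimap4, a lymphocyte GTPase, was also 2.87-fold higher without imatinib.

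Socs1, which blocks JAK kinases and limits interferon signalling, showed a crossing pattern. Without imatinib its signal was 213 in ETV6-PDGFRB cells and 85.0 in vector cells, 2.50-fold higher. With imatinib it was 8.16 against 76.7, below the floor on the fusion side and so at least 3.82-fold lower (under 2-fold, a log2 ratio of -0.85, with the floor at the 60th percentile). Without the drug the ETV6-PDGFRB array was above both vector arrays, and with it below both. FIP1L1-PDGFRA cells had 207 without and 5.63 with imatinib.

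Short stretches of promoter sequence are shown for a few lower and higher genes that held a match, since the factors named above bind known short motifs. These examples do not show how often the leading genes hold a match. The sequences are from RefSeq on GRCm38.p6, printed 5' to 3' on the strand of the gene, with the motif match in capitals. Windows ran from 250 bases before to 50 after each annotated start. 4 motifs were searched on both strands and counted separately even where matches share bases: TTCNNNGAA for STAT factors, GAAA, any 2 bases and GAAA again for interferon response factors, CACGTG for MYC and MAX, and GTAAACA for FOXO factors. A match is a description and not a shown binding site. The first pair below holds the STAT motif: Cish, chr9:107296654-107296683 on the plus strand, with 2 matches at its annotated start, and Irf1, chr11:53769899-53769958 on the plus strand, with a match 90 bases before the start.
Cish: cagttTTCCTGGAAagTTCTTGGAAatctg
Irf1: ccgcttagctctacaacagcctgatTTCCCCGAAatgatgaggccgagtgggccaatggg
The STAT motif was in 8.3% of all 32851 windows, in 6.93% of the 4475 genes with a ratio and 1 window, in 6.7% of the 194 higher and in 9.55% of the 157 lower genes among these. Of the 11 STAT5 list members with 1 window, 3 held it. It was also in 3 of 7 interferon-inducible GTPase and 5 of 12 antiviral list members. The antigen processing list had it in 1 of 10, the ribosome biogenesis list in 4 of 39 and the FOXO list in 3 of 20.

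ERK feedback and immediate early genes were also lower, 6 of 17 members at least 2-fold and 1 higher, with a median log2 ratio of -0.92 (0.05 without imatinib). Only 11 of the 17 were above the floor on the treated ETV6-PDGFRB array. The others had a ratio only through the vector array, so that they had to be lower. Among the 11, 4 were lower and 1 higher, with a median of -0.82. Dusp6, the phosphatase that removes ERK activation, had 73.9 in treated ETV6-PDGFRB and 289 in treated vector cells, 3.92-fold lower, after 373 and 281 untreated. Spred2 and Spred1, inhibitors of RAS to ERK signalling, were at 61.9 against 153 (2.48-fold lower) and at 213 against 451 (2.12-fold lower). As the mean over its probe sets Spred2 had a log2 ratio of -0.13. The treated ETV6-PDGFRB array was the lowest of the 4 vector and ETV6-PDGFRB arrays for all 3 genes. Dusp1, a stress-induced phosphatase, was the higher member, at 61.8 against 29.1 (2.13-fold). Egr1 was below the floor on all 6 arrays.

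Ribosome biogenesis genes were lower as a group. Of 52 list members with a ratio, 23 were at least 2-fold lower, 0 were higher, and 51 lay below a ratio of 1, with a median log2 ratio of -0.92. Without imatinib none of the 52 was 2-fold apart and the median was -0.22. Myc itself read 232 in treated ETV6-PDGFRB and 722 in treated vector cells, 3.12-fold lower, after 656 and 724 untreated. Polr1b, a subunit of RNA polymerase I, was at 41.5 against 157 (3.77-fold lower). Nolc1, a nucleolar phosphoprotein, had 209 against 747 (3.57-fold lower), and Rrp1b, an rRNA processing factor, 80.6 against 281 (3.49-fold lower). All 3 lay within 1.5-fold between the lines without the drug.

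Srm, spermidine synthase and a direct MYC target, had 277 against 1004, 3.62-fold lower, after 845 against 1078. Odc1, which starts polyamine synthesis, was at 545 against 842, 1.54-fold lower. Azin1, which protects that enzyme from its antizyme, was at 171 against 377 (2.20-fold lower), and Ctps2, a CTP synthase, was higher at 121 against 59.1 (2.05-fold), under 2-fold in 6 alternatives. Among the MYC partner and antagonist genes, Mxd4, a MAX partner that represses MYC sites, was higher at 191 against 57.1 (3.34-fold, and a log2 ratio of 0.91 as the mean over its probe sets), while Mycn was lower at 1009 against 2032 (2.01-fold). Mycn lay under 2-fold in 5 of the 12 alternative settings, among them both other choices of vector control. The genes for the cytosolic ribosomal proteins themselves did not share the pattern: 2 of 38 were 2-fold lower, against 3.72% of all genes. The list median was 0.20, which turned to -0.09 with scaling to the hybridization controls. One of these 2, Rps27, read 159 on the treated and 69.7 on the untreated vector array against 43.5 in treated ETV6-PDGFRB cells, so its 3.65-fold difference fell under 2-fold with the untreated vector array as the control. The other, Rpl12, was at 34.0 against 102.

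The pair of promoter stretches shown next holds the MYC and MAX motif in genes past 2-fold lower. They are Utp18, a component of the rRNA processing machinery, chr11:93885767-93885813 on the minus strand, with the match 20 bases before the start, and Nop2, an rRNA methyltransferase, chr6:125131796-125131855 on the plus strand, 60 bases before it.
Utp18: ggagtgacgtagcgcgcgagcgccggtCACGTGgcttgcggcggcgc
Nop2: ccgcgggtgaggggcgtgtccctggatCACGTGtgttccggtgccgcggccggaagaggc
CACGTG was in 7.15% of all windows, in 11.2% of the genes with a ratio and 1 window, in 8.76% of the higher and in 21.7% of the lower genes. Among list members with 1 window it was in 5 of 20 FOXO, 2 of 10 antigen processing and 2 of 11 STAT5 genes. The antiviral list had it in 1 of 12 and the GTPase list in 0 of 7. On the ribosome biogenesis list, 12 of 39 members with 1 window (30.8%) held it. Utp18 and Nop2 were picked from these 12, whereas Polr1b and Rrp1b, with larger differences, held no match to it in their windows. Utp18 had 128 against 315 with imatinib, 2.46-fold lower, and Nop2 had 93.0 against 199, 2.14-fold lower.

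Glucose uptake and glycolysis genes were lower as well: 8 of 19 at least 2-fold, 0 higher, median log2 ratio -0.77, with a median of -0.40 without imatinib. Of the 17 above the floor on the treated ETV6-PDGFRB array, 7 were lower and 0 higher, with a median of -0.77. Slc2a3, a high-affinity glucose transporter, had 275 in treated ETV6-PDGFRB and 1232 in treated vector cells, 4.47-fold lower, and 636 against 1269 without the drug. Slc2a1, the other main transporter here, was at 64.5 against 137 (2.13-fold lower, under 2-fold with a pseudocount), and Pfkp, a phosphofructokinase, at 156 against 444 (2.85-fold lower). Hk2, a hexokinase, was at 112 against 171, 1.53-fold lower, whereas untreated ETV6-PDGFRB cells were 1.51-fold higher for it. Oxidative phosphorylation genes had 0 of 50 members past 2-fold in either direction, with a median of 0.19 that turned to -0.10 with scaling to the hybridization controls.

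Among genes held down by PI3K signalling and read by FOXO factors, 8 of 27 exceeded the vector signal by 2-fold or more and 1 was lower, with a median log2 ratio of 0.79 (0.16 without imatinib). The 25 above the floor on the treated vector array had 7 higher and 1 lower, with a median of 0.79. The other 2 had a ratio only through the fusion array, so that they had to be higher. Ccng2, an unconventional cyclin linked to cell cycle exit, had 477 in treated ETV6-PDGFRB and 55.6 in treated vector cells, 8.58-fold higher, after 108 and 55.5 untreated. Cdkn1b, the CDK inhibitor p27, was at 160 against 26.0, 6.14-fold higher, and at 69.3 against 40.2 untreated. Since the vector arrays themselves read 40.2 and 26.0, part of that ratio is the lower treated vector signal. As the mean over its probe sets Cdkn1b had a log2 ratio of 0.50, against 2.62 for the brightest one. Pnrc1, a nuclear receptor cofactor, had 429 against 132 (3.24-fold higher, but a log2 ratio of 0.27 as the mean over its probe sets), and Trp53inp1, a stress and autophagy protein, 187 against 59.8 (3.13-fold higher). For these 4 genes the treated ETV6-PDGFRB signal was the highest of the 4 vector and ETV6-PDGFRB signals. Another member, Pink1, was 3.61-fold higher, but its vector arrays differed from each other by over 2-fold, at 49.5 and 24.6. The FOXO motif was in 3.65% of all windows and in 2 of 20 list members with 1 window.

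Cell cycle genes did not follow the lower D-type cyclin. E2F-driven G1/S genes had 2 of 40 members higher and 1 lower, with a median of 0.40, and G2/M genes 1 of 41 higher and 0 lower, with a median of 0.42. Over all genes 4.43% were higher and 3.72% lower, so these counts lay near the shares of all genes. Both medians stayed above 0 in the 12 alternative settings. E2f8, an atypical E2F repressor, had 238 against 99.4 (2.39-fold higher), and Cdc25a, a phosphatase that activates CDK2, had 50.7 against 105 (2.07-fold lower). The other higher members were Brca1, the DNA repair gene, at 135 against 67.3 (2.01-fold) and Ect2, which acts in cytokinesis, at 263 against 128 (2.05-fold). Brca1 and Ect2 lay under 2-fold in 5 of the 12 alternatives each, Cdc25a in 4, and E2f8 with scaling to the hybridization controls. Tob1, an antiproliferative protein, was at 228 against 70.5, 3.24-fold higher. Cdkn1a, the CDK inhibitor p21, was in contrast at 380 against 688, 1.81-fold lower, after 851 against 654 untreated. In the list of CDK inhibitors and G1 cyclins 4 of 17 members were higher (Ccng2, Cdkn1b, Tob1 and Rbl2) and 1, Ccnd2, lower, while Ccnd1 was below the floor on all 6 arrays.

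In the BCL2 family 2 of 12 members were lower and 0 higher, with a median of -0.05. Over all genes 3.72% were lower and 4.43% higher. Bcl2l1, which encodes the survival protein BCL-XL, had 45.8 in treated ETV6-PDGFRB and 126 in treated vector cells, 2.75-fold lower, after 79.1 against 129. As the mean over its probe sets its log2 ratio was -0.0024. The pro-apoptotic Bcl2l11 (BIM) was at 325 against 165, 1.97-fold higher, but had stood 2.17-fold higher, at 338 against 156, without the drug. Mcl1 was at 539 against 730, 1.35-fold lower. The second lower member, Bnip3, read 98.7 against 270 with imatinib and 93.5 against 246 without, so its 2.74-fold and 2.63-fold differences were alike in size.

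**Figure D3:**
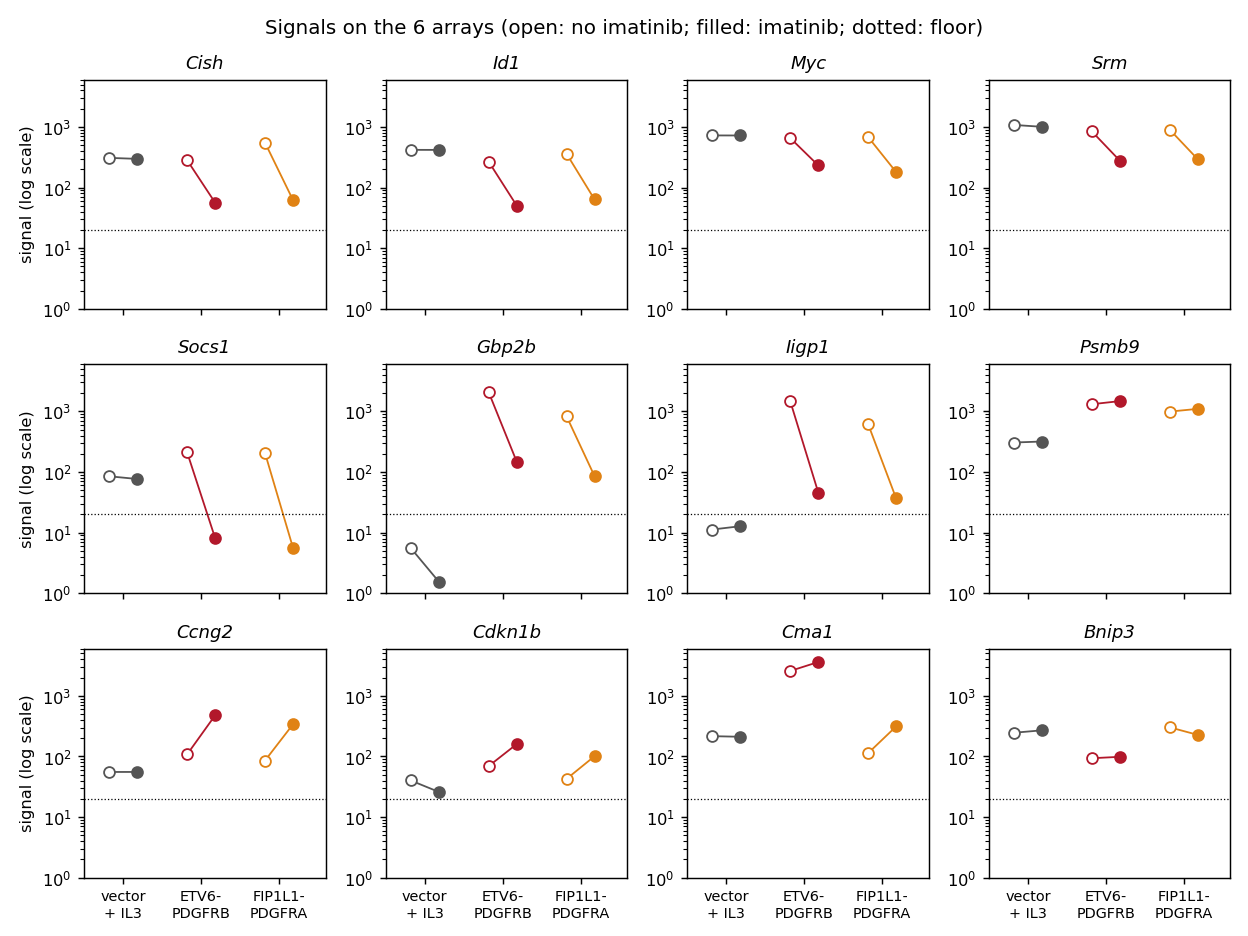
Signals of 12 genes on the 6 arrays, on a log scale, with open circles for no imatinib, filled circles for imatinib and the dotted line at the floor of 20.1; each circle is 1 array. Cish, Id1, Myc and Srm are near each other in the vector pair and untreated ETV6-PDGFRB cells and low in treated fusion cells, Gbp2b and Iigp1 stay above the floor in treated fusion cells, and Cma1 is high in ETV6-PDGFRB cells without and with imatinib.

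Interferon-inducible GTPases and most other interferon-stimulated genes with a ratio were above the vector level with imatinib. For the GTPases described, the ratios were smaller with the drug than without it. Of the 11 GTPases on the array, 4 were above the floor on the treated vector array, and 3 of them (Ifi47, Gbp7 and Igtp) were at least 2-fold higher, with a log2 ratio of 0.98 for the other, Irgm1. A further 5 had a ratio only through the fusion array, so that they had to be higher, and 2 were below the floor on both. All 9 with a ratio were 2-fold higher without the drug and 7 with it. Without the drug 10 members had a ratio, and all 10 were 2-fold higher. Only 4 of these 10 were above the floor on the untreated vector array, so the others had to be higher. Gbp2, a guanylate-binding protein of antimicrobial defence, had 235 in treated ETV6-PDGFRB and 4.65 in treated vector cells, at least 11.7-fold higher, after 1319 and 5.14 untreated (at least 65.7-fold). Gbp2b had 148 against 1.56 (at least 7.39-fold), after 2078 against 5.58 (at least 104-fold). Ifi47, an immunity-related GTPase, was at 217 against 24.0, 9.05-fold higher, after 1303 against 23.2. On every one of these arrays the fusion cells were above the vector cells, and the treated signal lay between the vector and the untreated fusion signal.

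Gbp7 was at 341 against 60.5, 5.64-fold higher, after 1447 against 49.9. Iigp1 was closest to the vector level of the named GTPases, with 45.9 against 12.8 (at least 2.28-fold, under 2-fold in 3 alternatives) after 1476 against 11.3. The guanylate-binding proteins are close paralogs, so their probe sets may share target sequence, which was not tested. The 3 stretches shown next hold the interferon response motif on the strand opposite to the gene: Gbp2, chr3:142620579-142620638, Gbp2b, chr3:142594685-142594744, and Gbp7, chr3:142530258-142530317, all on the plus strand, with the match 59, 137 and 53 bases before the start. Socs1, chr16:10785582-10785641 on the minus strand, holds 2 overlapping matches that begin 83 and 77 bases before it.
Gbp2: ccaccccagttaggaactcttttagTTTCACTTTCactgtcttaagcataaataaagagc
Gbp2b: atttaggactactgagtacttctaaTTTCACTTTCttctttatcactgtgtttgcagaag
Gbp7: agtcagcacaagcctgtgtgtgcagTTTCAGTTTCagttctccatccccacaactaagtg
Socs1: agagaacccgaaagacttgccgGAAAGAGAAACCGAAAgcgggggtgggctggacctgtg
The interferon response motif was in 3.44% of all windows, in 5.67% of the higher and 2.55% of the lower genes. It was in 6 of the 7 GTPase list members with 1 window and in 6 of 12 antiviral list members. Socs1 held this motif and so did Ifit1, and both had treated ETV6-PDGFRB signals below the floor. Whether the motif bears on any of these signals was not tested.

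Of the 24 antiviral interferon-stimulated genes with a ratio, 13 exceeded the vector signal by 2-fold or more and 1 was lower, but 7 of the 24 had a ratio only through the fusion array. The 17 above the floor on the treated vector array had 8 higher and 1 lower, with a median of 0.99. The median over all 24 was 1.21, and it was 0.61 with the floor at the 60th percentile. Without imatinib 30 members had a ratio, and 24 of these were 2-fold higher and 0 lower, with a median of 1.96. All 30 were above the floor on the untreated fusion array but only 16 on the untreated vector array, so the others had to be higher. Over the 24 members with both ratios the median was 2.15 without imatinib and 1.21 with it. Those of the 30 without a treated ratio were below the floor on both treated arrays. Oasl2, an oligoadenylate synthetase-like protein, had 103 against 5.29, at least 5.14-fold higher, after 471 against 6.18. Parp9, an interferon-induced member of the PARP family, was at 134 against 36.8 (3.64-fold), and Trim30a at 106 against 31.6 (3.35-fold). Ifi27l2a, a small mitochondrial interferon-induced protein, was at 180 against 45.9, 3.92-fold higher, and unlike the others its ETV6-PDGFRB signal was lower without the drug, at 114. Ifit1, which binds viral RNA caps, was at 307 in untreated ETV6-PDGFRB cells and at 11.4 with imatinib, below the floor as in the vector cells. The lower member was Slfn2, at 17.2 against 46.4.

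Antigen processing genes were higher in both settings. Of 13 members, 8 were past 2-fold higher and 0 lower with imatinib, these 8 were among the 10 higher without it, and the median was 1.09 against 1.39 without imatinib. Psmb9, an immunoproteasome subunit, had 1477 in treated ETV6-PDGFRB and 318 in treated vector cells (4.64-fold higher), after 1312 and 306 untreated (4.28-fold). Tap1, which carries peptides into the endoplasmic reticulum, was at 228 against 55.3 (4.12-fold), after 297 against 61.3 (4.85-fold). Psmb10 was at 566 against 197 (2.87-fold), after 1059 against 218, and Psmb8 at 1209 against 531 (2.28-fold), after 1394 against 532. With the hybridization controls as the scale, Psmb8 fell under 2-fold. Cd274, the PD-L1 ligand, was the member below the vector level, below the floor against 35.1, after 93.7 against 39.7 untreated.

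Among the STAT and IRF factor genes 3 of 11 were higher and 0 lower (4.43% and 3.72% over all genes), with a median of 0.45. Irf1, an interferon-induced transcription factor, was at 105 against 45.3 (2.31-fold, under 2-fold in 3 alternatives), after 403 against 57.7 (6.98-fold). Irf7 and Irf9, the other higher members, read 78.3 against 8.67 (at least 3.90-fold) and 70.2 against 24.3 (2.89-fold). Ifngr1, a chain of the interferon gamma receptor, was at 193 against 34.0, 5.70-fold higher, after 81.7 against 32.3 (2.53-fold), so its signal was higher with imatinib than without. Casp1, the inflammasome protease, was at 274 against 46.8 (5.85-fold), after 324 against 43.2. Lgals9, a galectin, was at 891 against 250 (3.57-fold), after 864 against 276.

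**Figure D4:**
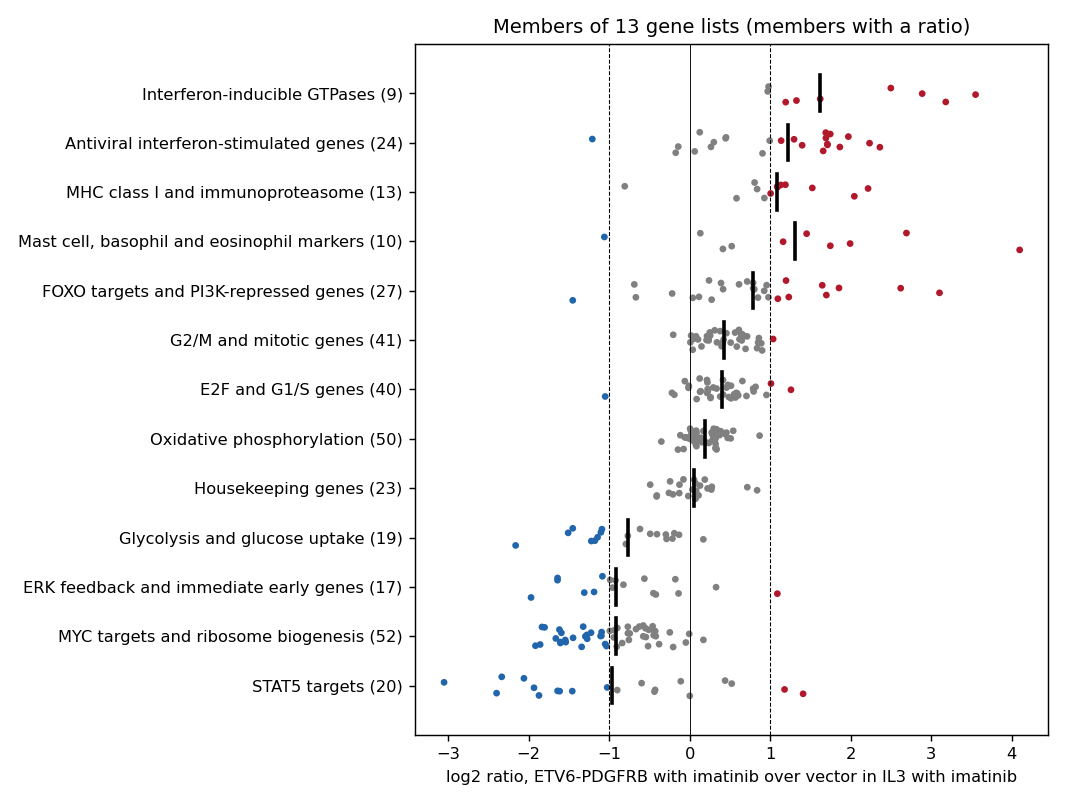
Log2 ratios of imatinib-treated ETV6-PDGFRB over imatinib-treated vector cells for the members of the gene lists named on the left, with the number of members that had a ratio in brackets; each point is 1 gene from 1 array a side, red or blue past 2-fold, and the black bar is the list median. The interferon and mast cell lists lie to the right with medians of 1.09 to 1.62, partly through members that were above the floor on the fusion array alone. Housekeeping genes lie near 0.05, and the MYC, ERK and STAT5 lists lie to the left with medians of -0.92, -0.92 and -0.96. In the ERK and STAT5 lists some members were above the floor on the vector array alone. In the FOXO list 2 members and in the G2/M list 1 member were above it on the fusion array alone.

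The mast cell protease genes Cma1 and Cpa3 were among the 10 highest ratios, at ranks 1 and 9 of the genes with a signal of at least 100. Cma1, mast cell chymase, had 3615 in treated ETV6-PDGFRB and 211 in treated vector cells, 17.1-fold higher, after 2574 and 216 untreated (11.9-fold). With no floor the ratios of F13a1, Gbp2 and Gbp2b, which are bounds here, exceeded that of Cma1, at log2 ratios of 5.85, 5.66 and 6.58 against 4.10. Cpa3, the mast cell carboxypeptidase, was at 1060 against 164 (6.46-fold), after 814 against 166 (4.89-fold). In FIP1L1-PDGFRA cells, whose treated comparison used the same vector array, the treated signals were 313 for Cma1 and 168 for Cpa3. Siglecf, an eosinophil surface lectin, was at 146 against 43.7 (3.35-fold), and untreated at 56.6 against 42.4.

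Over the list of mast cell, basophil and eosinophil markers, 6 of 10 members with a ratio were higher and 1 lower, out of 25 on the array. Mcpt4, Mcpt8 and Hdc among the 6 had a ratio only through the fusion array. Without these 3 the count was 3 higher and 1 lower of 7 and the median 0.52, against 1.31 over all 10, which itself was 0.47 with the floor at the 60th percentile. The summed signal of the list was 12205 on the treated ETV6-PDGFRB array and 6179 on the treated vector array. The other 4 arrays had sums from 5292 to 10437. The defining receptor genes Kit, Fcer1a and Ms4a2 and the tryptases Tpsab1 and Tpsb2 were below the floor on all 6 arrays. Mitf, the transcription factor of mast cell maturation, was the lower member, at 75.1 against 156 (2.08-fold, under 2-fold in 4 alternatives). Whether a subset of cells or all cells carried the protease signals was not tested.

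Other genes high in ETV6-PDGFRB cells without and with the drug came from several functions. F13a1, the A chain of coagulation factor XIII, was at 314 against 5.46 (at least 15.6-fold), after 268 against 6.48. Acta2, smooth muscle actin, was at 298 against 36.5 (8.15-fold), after 462 against 41.3 (11.2-fold). Papss2, which makes the sulfate donor for glycosaminoglycans, was at 198 against 11.5 (at least 9.85-fold, with a log2 ratio of 1.07 as the mean over its probe sets), after 106 against 8.56. The same genes in treated FIP1L1-PDGFRA cells read 8.26, 39.8 and 36.5. Of the 15 fibroblast markers on the array, 2 were above the floor, Vim being the other besides Acta2, and the list's summed signal was 3260 against 2058 on the treated arrays.

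Cxcr4, the receptor for the chemokine CXCL12 and a gene that FOXO factors can induce, was at 826 in treated ETV6-PDGFRB and 129 in treated vector cells (6.42-fold), after 360 and 130 untreated (2.77-fold). P2rx4, an ATP-gated channel, was at 538 against 140 (3.85-fold), after 277 against 131. Col5a1, a collagen chain, was at 1324 against 268 (4.93-fold), and Plxdc1, a plexin domain protein, at 110 against 18.8 (at least 5.46-fold). Untreated ETV6-PDGFRB cells read 438 and 36.1 for this pair. Stx2, a syntaxin of membrane fusion, was at 125 against 25.5 (4.88-fold), after 58.2 against 29.2, and Ampd3, an AMP deaminase, at 111 against 23.1 (4.81-fold), after 37.7 against 31.5. Other genes that lay under 1.5-fold without the drug included the transcription factor Zbtb16 at 119 against 38.1 (3.12-fold, but 0.34 on the log2 scale without its shared probe sets), the iron-sulfur cochaperone Hscb at 280 against 93.6 (2.99-fold), Pdzk1ip1 at 646 against 222 (2.91-fold) and Pqlc3 at 158 against 56.3 (2.81-fold). In the other direction, F2rl2, a thrombin receptor relative, was at 40.2 against 326, 8.12-fold lower, after 270 against 318.

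Of the 20 erythroid markers on the array, 12 were below the floor on both treated arrays, 2 of the other 8 were 2-fold higher and 0 lower. 1 of the 8, Rhag, had a ratio only through the fusion array, so that it had to be higher. The 7 above the floor on the treated vector array had 1 higher and 0 lower. Over the members with a ratio in both settings, 7 including Rhag, the median was 0.87 with imatinib and 0.29 without it. Klf1, the master factor of erythroid genes, was at 943 against 180 (5.26-fold), after 313 against 185. Gata1 was at 641 against 355, 1.81-fold higher, and Epor, the erythropoietin receptor, at 78.6 against 47.5 (1.65-fold). The second member past 2-fold, Rhag, was at 98.5 against 9.31 and had been at 132 against 12.3 without the drug, so its fusion signal was lower with imatinib and Klf1 alone passed 2-fold with imatinib and not without it. The summed signal of the 20 markers on the array was 3698 against 2130. Gfi1b, a transcriptional repressor active in the erythroid and megakaryocyte lineages, was at 320 against 136 (2.35-fold, under 2-fold with scaling to the hybridization controls). Gata2 was at 772 against 581 (1.33-fold).

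Genes that were lower in ETV6-PDGFRB cells without and with imatinib included signalling adaptors and lineage genes. Dok2, an adaptor that dampens tyrosine kinase signalling, was at 82.6 against 545 (6.60-fold lower), after 171 against 516 (3.01-fold). Adgre1, the macrophage antigen F4/80, was at 46.2 against 305 (6.59-fold lower), after 61.4 against 284. Lat, the T cell adaptor, was at 102 against 273 (2.68-fold lower), after 128 against 301. The 21 myeloid markers summed to 722 against 1439, and the 19 T and NK cell markers to 285 against 391, on the treated arrays. Their part in the other differences was not tested. Lyl1 and Id2, both regulators of blood lineages, were at 415 against 998 (2.41-fold lower) and 72.3 against 186 (2.57-fold lower), and the untreated arrays gave 2.74-fold and 2.95-fold. Id2 lay just under 2-fold as the mean over its probe sets. St3gal2, a sialyltransferase, was at 60.7 against 266 (4.39-fold lower), after 105 against 277. Galnt6, which starts mucin-type glycans, was at 50.7 against 150 (2.95-fold lower), and the secreted protein gene Egfl7 at 60.1 against 146 (2.43-fold lower).

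Several of the lowest genes belong to none of the lists. Pik3cd, the leukocyte PI3K catalytic subunit, was at 60.8 against 411, 6.76-fold lower, after 291 against 366. Its other 2 probe sets gave log2 ratios of -2.09 and, as a bound, -2.25. Trgv4, a T cell receptor gamma segment, was at 78.3 against 503 (6.42-fold lower), after 573 against 488, but had a log2 ratio of -0.29 as the mean over its probe sets. Clcn5, a chloride and proton exchanger, was at 37.4 against 230.1 (6.15-fold lower), after 251 against 267, with a log2 ratio of -0.86 when shared probe sets were left out. Ccnb1ip1, a ubiquitin ligase of meiotic recombination, and Mtmr9, a myotubularin relative, were at 88.2 against 556 (6.30-fold lower) and 119 against 608 (5.09-fold lower), and their untreated ETV6-PDGFRB signals of 318 and 331 were also below the vector signals of 532 and 566. Metrnl, a secreted protein, Ndufaf4, an assembly factor of respiratory complex I, and Kcnk5, a potassium channel, were 4.83-fold, 4.57-fold and 4.03-fold lower. These 3 lay within 1.5-fold between the lines without the drug. Tnfrsf9 (4-1BB) was at 39.2 against 190 (4.85-fold lower) and Tnfrsf12a, the TWEAK receptor, at 22.8 against 108 (4.75-fold lower), both within 1.5-fold between the lines without the drug. Treated FIP1L1-PDGFRA cells read 160 for Tnfrsf9 and 7.84 for Tnfrsf12a, the first above and the second below the ETV6-PDGFRB signal. Il3ra, the IL3 receptor chain, was at 65.2 against 34.7 (1.88-fold higher), and Csf2rb, the shared beta chain, at 1335 against 1284.

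The ratios against the shared treated vector array were also set beside those of treated FIP1L1-PDGFRA cells, where 151 genes (2.23%) were past 2-fold higher and 161 (2.38%) past 2-fold lower. The 2 comparisons share the vector array, so their likeness was not measured. List medians for ETV6-PDGFRB and FIP1L1-PDGFRA were -0.96 and -0.80 for STAT5 targets and -0.92 and -0.77 for ribosome biogenesis. They were 0.79 and 0.60 for FOXO targets and -0.77 and -0.25 for glucose genes. For interferon-inducible GTPases they were 1.62 and 1.89, for antiviral genes 1.21 and 1.31, and for antigen processing genes 1.09 and 1.08. Some members of these interferon lists and of the FOXO list had a ratio only through a fusion array.

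Housekeeping genes had 0 of 23 members past 2-fold and a median of 0.05, chaperones 0 of 30 and -0.24, and lysosome and autophagy genes 0 of 37 and 0.16. The counts that follow stand beside 4.43% higher and 3.72% lower over all genes. Sterol and fatty acid genes had 2 of 26 higher and 0 lower. These were Acss2, which makes acetyl-CoA from acetate, at 200 against 66.0 (3.02-fold), and Mvk, mevalonate kinase, at 112 against 46.1 (2.44-fold, just under 2-fold with the hybridization controls). ATF4 and amino acid genes had 1 of 29 higher and 2 lower, one of them Tars, a threonyl-tRNA synthetase, at 162 against 396 (2.44-fold). Of the p53 targets 2 of 18 were higher and 1 lower, the nuclease Aen, at 57.0 against 146 (2.56-fold). The median of housekeeping genes turned below 0 with scaling to the hybridization controls, as did those of sterol, lysosome and p53 genes.

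Several short lists had larger shares past 2-fold than the 8.15% of all genes, in both directions or on few members. Nuclear factor kappa B genes had 3 of 12 higher and 0 lower: Tnfaip2 at 218 against 84.5 (2.58-fold), Irf1, and the inhibitor Nfkbia at 685 against 304 (2.25-fold), after 671 against 305. Nfkbia fell under 2-fold with the hybridization controls and as the mean over its probe sets, and Tnfaip2 without shared probe sets. Haematopoietic transcription factors had 3 of 21 higher (Klf1, Gfi1b and Lmo2) and 4 lower (Id2, Lyl1, Nfil3 and Mitf), with a median of 0.00, while Bcl6 was below the floor on all arrays. The list of G protein-coupled and chemokine receptors had 3 of 17 higher (Cxcr4, P2rx4 and Rgs1) and 2 lower (F2rl2 and P2rx1). Of these, P2rx4, Rgs1 and P2rx1 are not such receptors themselves. Surface, adhesion and matrix genes had 3 of 27 higher and 2 lower, and cytokine receptor and JAK genes 2 of 20 higher and 1 lower. The higher receptors were Ifngr1 and Il17ra, the interleukin 17 receptor chain, at 166 against 69.6 (2.39-fold, under 2-fold with the hybridization controls). MYC, MAX and MXD factors had 1 of 10 higher and 2 lower, and polyamine and nucleotide genes 1 of 22 higher and 2 lower. Of the B cell markers 1 of 7, Cd79b, was higher, at 121 against 45.3.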

How the data were processed

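The authors deposited MAS5 intensity signals, made with GCOS 1.4.0 per the submitters' processing notes, 1 value per probe set on each of 6 arrays. Of detection calls and background settings, the sources used here say nothing. Gene names came from GEO's platform annotation, which gave 1 symbol to 20393 probe sets, several to 691 and none to 1606; those with several were left out. For each gene the probe set that was brightest on average (log2) was used. Signals below 20.1, the median of the arrays' 50th percentiles, were set to it, and ratios were taken on the log2 scale, with a difference called at 2-fold. With 1 array per group no test was run, and so few arrays limit the precision of every value.

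By rule the text names the 20 highest and 20 lowest genes with a signal of at least 100 on the higher array, up to 4 leading members past 2-fold of each list, the 10 leading genes of each class, 38 landmark genes (37 on the array) and the genes 2-fold apart between the vector arrays; other list members named were chosen after their values were seen. The members and the 35 gene lists were chosen with earlier results of these data known. Scripts ran in Python 3.11.15 with numpy 2.4.6, pandas 2.3.3 and matplotlib 3.10.9 and were tested on simulated data.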

Additional observations from a re-analysis of the deposited data

Results flagged for a closer look

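Socs1, the JAK and interferon signalling inhibitor, was singled out because the difference between ETV6-PDGFRB and vector cells ran in opposite directions without and with imatinib. Its log2 ratio over vector cells was 1.32 without imatinib, from signals of 213 and 85.0, and -1.93 with it, from 8.16 and 76.7, the second being a bound because the fusion array was below the floor. The difference between the 2 ratios was not tested, since each rests on 1 array a side. The untreated and treated ratios share no array.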

How the results depend on the processing

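No paired analysis was possible because each group is 1 array and the labels carry no replicate numbers. All 104 named genes past 2-fold kept their direction in every one of the 12 alternatives that gave them a value (11 for Acta2 and Tap1, 10 for Cysrt1 and Rab15), and 72 stayed past 2-fold there. The 11 list medians beyond 0.5 (log2) kept their sign, but the antiviral median of 1.21 fell to 0.61 and the mast cell median of 1.31 to 0.47 with the floor at the 60th percentile, and the latter to 0.52 with no floor. Counts moved by over 1.5 times as follows. Higher genes numbered 303, but 199 with the floor at the 60th percentile, 1754 with no floor, 200 with log2(signal + 16) and 139 with hybridization control scaling. Lower genes numbered 255, but 1431 with no floor and 487 with hybridization controls. The controls also gave 51 genes higher in both settings, 38 lower in both, 53 under 1.5-fold without and higher with imatinib, and 353 under 1.5-fold without and lower with it. The floor at the 40th percentile gave 39 genes lower in both and 6 with opposite directions (Bmp1, Cd274, Clcn3, Fbxl8, Rab15 and Socs1), and at the 60th 0 with opposite directions and 92 under 1.5-fold without and higher with imatinib. The cause of these shifts was not tested. Signals near the floor limit what can be read for dim genes. Of the other 32 named genes, 15 fell under 2-fold as the mean over probe sets (Bcl2l1, Brca1, Cdc25a, Cdkn1b, Ctps2, Id2, Iigp1, Il4ra, Mitf, Mxd4, Mycn, Nfkbia, Pnrc1, Spred2 and Trgv4), 11 with the hybridization controls (Brca1, Ctps2, E2f8, Ect2, Gfi1b, Iigp1, Il17ra, Irf1, Mvk, Nfkbia and Psmb8), 10 with log2(signal + 16) (Brca1, Cdc25a, Ctps2, Ect2, Irf1, Mitf, Mycn, Pim2, Rab15 and Slc2a1) and 10 with the untreated vector array (Brca1, Cdc25a, Ctps2, Cysrt1, Ect2, Irf1, Mitf, Mycn, Pink1 and Rps27). The floor at the 60th percentile took Cysrt1, Iigp1, Pim2 and Socs1 under it, and leaving out shared probe sets took Clcn5, Tnfaip2 and Zbtb16.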

Other observations

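Several genes that respond to low oxygen were lower in ETV6-PDGFRB cells without and with imatinib; they were picked after their values were seen. Fam162a was at 665 in treated ETV6-PDGFRB and 1711 in treated vector cells (2.57-fold lower), after 776 against 1606. Pdk1, a kinase that inhibits pyruvate dehydrogenase, was at 37.2 against 86.8, after 32.4 against 99.4. Egln1, an oxygen-sensing prolyl hydroxylase, was at 86.8 against 190, after 92.9 against 169, and Pgam1, a glycolytic mutase, at 646 against 1460, after 808 against 1551. In treated FIP1L1-PDGFRA cells the signals were 1529, 95.3, 175 and 1237 in that order. Other genes linked to low oxygen were not lower: Kdm3a was at 170 against 136 and Ddit4 at 132 against 76.1.

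Genes of the annexin and S100 calcium-binding families, again picked after their values were seen, lay on both sides. Anxa1 was at 341 against 96.4 with imatinib (3.53-fold) and 225 against 126 without. S100a6 was at 796 against 295 (2.70-fold), after 535 against 323, and its treated FIP1L1-PDGFRA signal was 229. Anxa2 was lower, at 939 against 1685 (1.79-fold), after 1011 against 1660.

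The vector arrays without and with imatinib differed past 2-fold for Cysrt1, Dennd10, Mad1l1, Mpnd, Nfic, Pink1, Rab15, Rps27 and Sbf2. Among these, Cysrt1, Pink1, Rab15 and Rps27 were also past 2-fold in the treated comparison, so those 4 ratios rest on vector signals that were themselves apart.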
